A study of Mus musculus with 18 samples.

Results

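In 9 of 18 pools of mouse mammary tumour RNA, miR-216a and miR-217 stood at a high level, and in the other 9 pools at a low one. The high pools are those of AKXD strains 3, 10, 13, 14, 20, 21, 22, 23 and 28, and the low pools those of strains 2, 7, 9, 11, 16, 18, 24, 25 and 27. The pools were chosen by the measured levels of miR-216a and miR-217 themselves, so the levels of these miRNAs, and of miR-216b from the same locus, are given as a description without a test. What was tested is whether any other miRNA, or any property of the libraries, differed between the 2 sets. All 18 pools hold tumours of F1 mice between an AKXD recombinant inbred strain and FVB/N-TgN(MMTV-PyVT)634Mul, in which the polyoma virus middle T antigen is driven by the mouse mammary tumour virus promoter. The sets therefore share tissue, oncogene and FVB/N parent, and by their labels they differ in the AKXD strain of the other parent. AKXD strains were inbred from crosses of AKR/J with DBA/2J mice, so each carries its own mosaic of both genomes; no genotype was used here. Tumour RNA of several mice of a strain was combined into 1 library, how many mice went into a pool was not stated in the labels, and no strain has a replicate. Every p-value below judges a difference against the spread between pools, and strain, pool and library differences cannot be told apart.

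A miRNA is a short RNA that is cut from a hairpin precursor and guides Argonaute proteins to messenger RNAs, mainly by pairing of its seed, bases 2 to 8 from the 5′ end. miR-216a, miR-216b and miR-217 are known above all from acinar cells of the exocrine pancreas, and miR-217 is also studied in ageing endothelium. They are not among the miRNAs by which mammary epithelium is usually recognised. In GRCm38.p6 their hairpins lie on the plus strand of chromosome 11 within 17645 bases: Mir216b at 28746191 to 28746276, Mir216a at 28757012 to 28757083 and Mir217 at 28763728 to 28763835. Mir216a and Mir217 fall in an intron of the lincRNA gene Gm12082 in GENCODE, while Mir216b lies upstream of that gene and overlaps the hairpin Mir216c on the opposite strand. The mature sequences that RefSeq gives under these names are shown with the seed in capitals. They were matched by name and are assumed to be what was counted.
miR-216a: uAAUCUCAgcuggcaacuguga
miR-216b: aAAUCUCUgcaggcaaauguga
miR-217: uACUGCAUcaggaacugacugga
miR-216a and miR-216b are identical at 18 of 22 bases. Counted from the 5′ end of miR-216a, they differ by U1A, A8U, U11A and C17A, so that their seeds differ in the last base alone. miR-217 has an unrelated seed. None of the 1679 mature miRNA names in the RefSeq table carries any of these 3 seeds apart from the miRNAs themselves. If the rows count these sequences, they are 3 distinct sequences from 3 hairpins. The split described next was fixed in advance for miR-216a and miR-217, by which the pools were chosen.

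Levels are in CPM, the reads of a miRNA per 1000000 miRNA reads of its library, corrected by 1 scaling factor per library. For miR-216a the high pools were at 36.2 CPM (strain 3), 55.3 (strain 10), 34.2 (strain 13), 38.3 (strain 14), 27.0 (strain 20), 36.9 (strain 21), 31.1 (strain 22), 27.2 (strain 23) and 41.6 (strain 28). The low pools were at 2.71 CPM (strain 2), 0.978 (strain 7), 5.17 (strain 9), 4.85 (strain 11), 2.48 (strain 16), 2.74 (strain 18), 3.18 (strain 24), 2.84 (strain 25) and 3.98 (strain 27). The 9 high pools spanned a 2.05-fold range, and the lowest of them stood 5.23-fold above the highest low pool. By total reads alone, without the scaling factor, the gap was 3.48-fold. The high pools were then at 21.0 (strain 20) to 69.6 CPM (strain 28). Just inside the split were strain 20 (27.0 CPM) and strain 23 (27.2 CPM), and just outside it strain 9 (5.17 CPM) and strain 11 (4.85 CPM).

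miR-217 was at 40.7 CPM in strain 3, 155.4 in strain 10, 90.9 in strain 13, 64.5 in strain 14, 60.8 in strain 20, 40.7 in strain 21, 41.3 in strain 22, 50.1 in strain 23 and 47.1 in strain 28. In the low pools it was at 5.35 CPM in strain 2, 1.71 in strain 7, 7.67 in strain 9, 5.45 in strain 11, 1.93 in strain 16, 1.79 in strain 18, 6.14 in strain 24, 4.43 in strain 25 and 3.79 in strain 27. Again the sets did not overlap, with 5.30-fold between strain 21, the lowest high pool, and strain 9, the highest low pool. With the scaling factor, strains 10, 13, 14 and 20 had the 4 highest values. By total reads alone strain 10 stayed highest (111.0 CPM) and strain 28 was next (78.8 CPM). Strain 14 was then the lowest high pool (43.3 CPM).

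miR-216b, the least abundant of the 3, was at 26.9 CPM in strain 3, 26.4 in strain 10, 16.1 in strain 13, 14.5 in strain 14, 12.8 in strain 20, 21.5 in strain 21, 13.0 in strain 22, 12.8 in strain 23 and 33.1 in strain 28. Among the low pools strain 18 was lowest (0.855 CPM) and strain 9 highest (5.89 CPM), with a median of 1.94. Here the gap was narrower, 2.17-fold between strain 20 and strain 9, and 1.42-fold when libraries were scaled by total reads alone. On the log2(CPM + 1) scale the means of the high and low pools were 5.20 ± 0.31 and 2.01 ± 0.49 for miR-216a (SD, 9 pools each), 5.91 ± 0.64 and 2.28 ± 0.63 for miR-217, and 4.29 ± 0.51 and 1.61 ± 0.65 for miR-216b. The differences of these means were 3.19, 3.64 and 2.68.

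**Figure D1:**
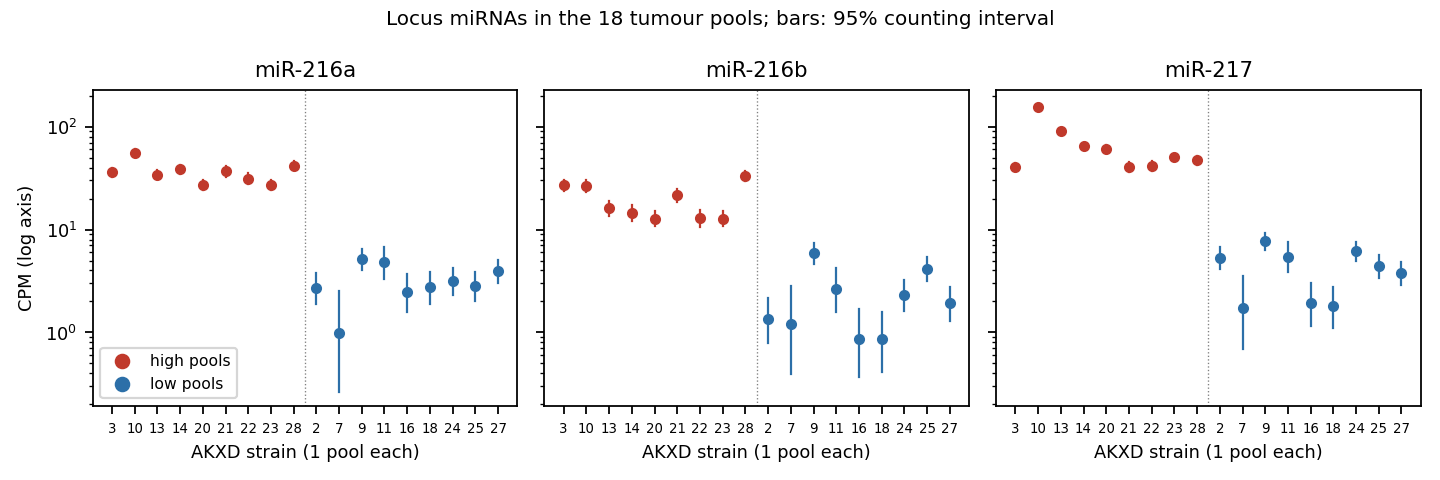
CPM (log axis) of miR-216a, miR-216b and miR-217 in each of the 18 pools, high pools in red and low pools in blue; bars are 95% Poisson intervals of the reads. In each panel every red point lies above every blue one, with the narrowest gap for miR-216b, between strain 20 (12.8 CPM) and strain 9 (5.89 CPM).

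The levels rest on few reads in the low pools and on more in the high ones. High pools held 260 (strain 22) to 477 (strain 10) reads of miR-216a, and low pools 4 (strain 7) to 69 (strain 9). For miR-217 the counts were 312 (strain 21) to 1338 (strain 10) against 7 (strain 7) to 103 (strain 9), and for miR-216b 109 (strain 22) to 306 (strain 28) against 5 (strain 7) to 79 (strain 9). The exact 95% Poisson interval of the 4 reads of miR-216a in strain 7, the shallowest library with 4358424 reads, was 1.09 to 10.2 reads, and that of the 69 reads in strain 9 was 53.7 to 87.3. These intervals cover counting error only. No pool was at 0 for any of the 3, so the low pools had a low level and not an absence of reads. Being bulk tissue, fewer cells with the locus active and less RNA per cell cannot be told apart.

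The 3 miRNAs did not keep a fixed proportion among the high pools. The ratio of miR-217 to miR-216a was 2.81 in strain 10, 2.66 in strain 13, 2.25 in strain 20, 1.84 in strain 23 and 1.68 in strain 14. It was 1.33 in strain 22, 1.13 in strain 28, 1.12 in strain 3 and 1.10 in strain 21. In strain 10 miR-217 was thus well ahead of miR-216a, while in strains 3, 21 and 28 they were close. Low pools ranged from 0.655 (strain 18) to 1.97 (strain 2), within which most of the high pools also fell; the counts of 4 to 103 reads make these ratios less precise. The ratio of miR-216b to miR-216a went from 0.379 in strain 14 to 0.7955 in strain 28 in the high pools, and from 0.312 in strain 18 to 1.46 in strain 25 in the low pools. Strain 28 was the highest pool for miR-216b, and strain 10 for miR-216a and miR-217. By total reads alone strain 28 was highest for miR-216a too, at 69.6 CPM against 39.5 CPM in strain 10. Ratios within a library do not depend on how libraries are scaled.

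**Figure D2:**
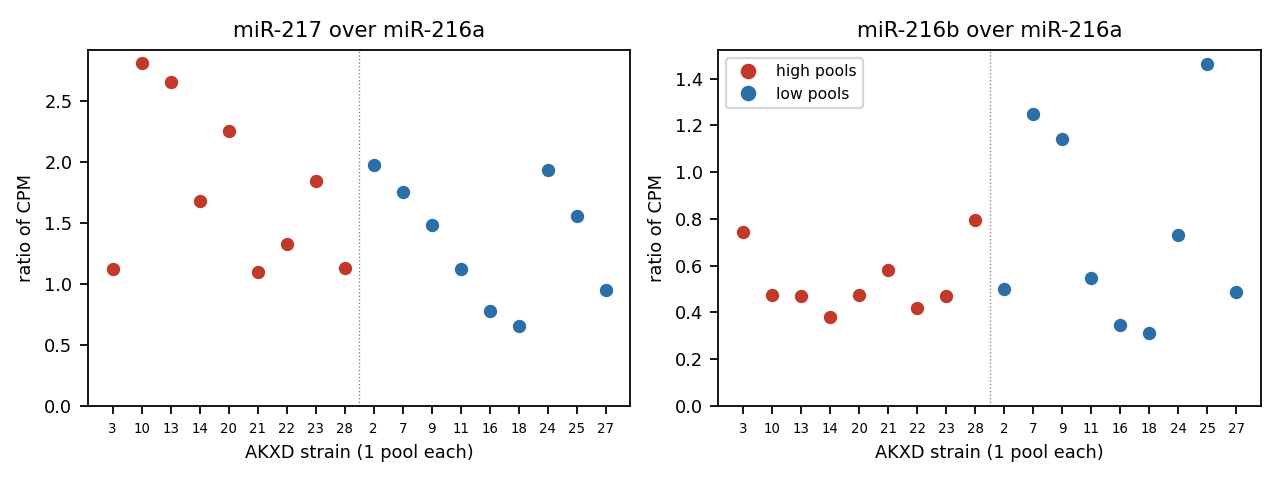
Ratio of the CPM of miR-217 to miR-216a (left) and of miR-216b to miR-216a (right) in each pool, high pools in red and low pools in blue. Strains 10, 13 and 20 have the highest ratios of miR-217 to miR-216a, at 2.81, 2.66 and 2.25, and strain 25 the highest of miR-216b to miR-216a, at 1.46.

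Some libraries stand apart, and more of them are among the high pools. On the first principal component of the 278 other tested miRNAs (27.8% of the variance) strains 10, 13, 14 and 20, all high pools, had scores of -12.02, -7.84, -6.65 and -6.64, and the lowest of the other 14 was -1.73 (strain 23). Strain 28, also a high pool, had let-7c at 1.45% of its reads, against 14.1% to 22.5% in the other 17. The same library was lowest of all for miR-21, at 273.9 CPM against 52923 to 74414 CPM in the low pools, and for miR-146b, at 940.6 CPM against 27213 to 72593 CPM. Scaling factors were lowest in strains 14, 10, 13 and 20, at 0.671, 0.714, 0.771 and 0.776. The highest was that of strain 28, at 1.67. Low pools had factors of 0.850 (strain 11) to 1.197 (strain 16), so both extremes were high pools. The mean factor was 0.998 in the high and 1.051 in the low pools. By total reads alone, without this factor, 9 miRNAs had an unadjusted p under 0.05, against 29 with it. The miR-200 list of epithelial miRNAs was abundant in every pool, from 28514 to 54694 summed CPM. Over 6 library measures none differed between the sets in a two-sided exact permutation test with Benjamini-Hochberg adjustment: mean total reads were 10432801 in the high and 10696081 in the low pools (adjusted p = 0.923), and the mean score on the first component was -1.67 against 1.67 (exact p = 0.184, adjusted p = 0.923). The number of miRNA rows with reads was 500 to 533 in the high and 482 to 536 in the low pools (adjusted p = 0.923). The 482 rows are those of strain 25, where a row with a single read would round to 0 and be missed. Strain 7, without that rounding, had 483. No batch is named in the labels, and within-batch values were therefore not computed.

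**Figure D3:**
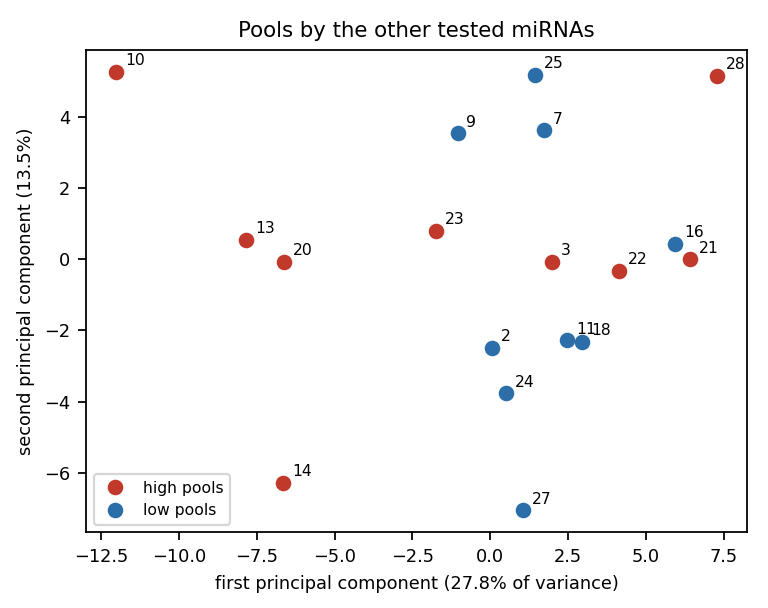
Scores of the 18 pools on the first and second principal components (27.8% and 13.5% of the variance) of log2(CPM + 1) of the 278 tested miRNAs, without the locus, labelled by strain; high pools in red, low pools in blue. Red and blue pools are mixed on the right, and the 4 pools at -6.64 or below on the first component are all high pools.

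No other miRNA followed the split. Among the 278 miRNAs that averaged 10 CPM or more, 0 were called at an adjusted p under 0.05 (0% called; two-sided exact permutation test over all 48620 divisions into 9 and 9 pools, Benjamini-Hochberg adjustment; smallest adjusted p = 0.428). At an unadjusted p under 0.05 there were 29 (10.4%), of which 12 were higher (4.32%) and 17 lower (6.12%) in the high pools. limma with a trended prior called 0 too, with 30 at an unadjusted p under 0.05 (10.8%), and 9 (3.24%) with the first principal component as a covariate. A perfect separation would have had an exact p = 4.11e-05 and, alone, an adjusted p of 0.0114, so the design could have called one. The ranges of the 2 sets overlapped for every one of the 278, and for every other distinct row of any abundance (0% without overlap). The median difference of the 278 was -0.009 log2, 89.2% lay within 0.5 log2 of 0, and the extremes were -1.04 (miR-150) and 1.21 (miR-204), with 137 of the 278 above 0 and 141 below. With limma the median 95% interval of a difference reached 0.43 log2 to either side, before any adjustment for the number of miRNAs. Calls at an adjusted p under 0.05 needed more than that: miR-29a*, at -0.93, and miR-204, at 1.21, were not called.

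**Figure D4:**
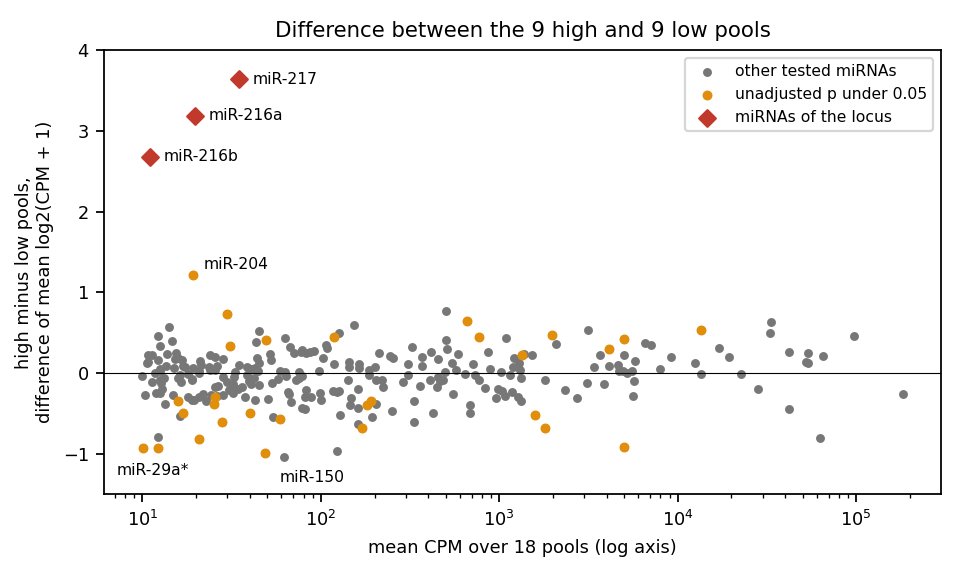
Difference of mean log2(CPM + 1), high minus low pools, against mean CPM (log axis) for the 278 tested miRNAs (grey; orange at an unadjusted p under 0.05) and for the 3 miRNAs of the locus (red). The tested miRNAs lie between -1.04 and 1.21; the locus, at 2.68 to 3.64, is drawn for orientation, since the pools were chosen by it.

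The 8 miRNAs with the smallest p among those lower in the high pools were miR-29a*, miR-151-5p, miR-29a, miR-106b, miR-450a-5p, miR-29c, miR-142-3p and miR-24-2*. None was called; all had an adjusted p of 0.428 in the exact permutation test. Both arms of the miR-29a hairpin are in this set, with miR-29c, which has the same seed as miR-29a. The miR-29 family is known for repressing collagen and other matrix genes. Its sequences show that miR-29a and miR-29c share their seed, while miR-29a*, the other arm of the hairpin, has another.
miR-29a: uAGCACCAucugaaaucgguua
miR-29c: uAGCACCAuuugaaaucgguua
miR-29a*: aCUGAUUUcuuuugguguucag
miR-29a* had the smallest p of all 278 (exact p = 0.00214), at 1.51 to 12.9 CPM in the high pools (median 5.68) and 9.07 to 17.9 CPM in the low pools (median 12.02). The 6 high pools below every low pool were strains 10, 13, 14, 20, 22 and 23. The difference was -0.93 log2 (95% interval by limma -1.48 to -0.39). miR-29a itself was at 714 (strain 10) to 1948 CPM (strain 28) in the high pools, median 1283, and at 1212 (strain 18) to 2622 CPM (strain 25) in the low pools, median 1748 (difference -0.52, exact p = 0.00815). For miR-29c the medians were 52.9 and 61.8 CPM (difference -0.57, exact p = 0.022). All 3 tested members of the miR-29 family list were lower, by a median of -0.57 log2 against -0.009 over all tested miRNAs, 2 of them at an unadjusted p under 0.05 and none called. Over all tested miRNAs 141 of 278 were lower, 6.12% at an unadjusted p under 0.05. Without strains 10, 13, 14 and 20 the median of the family was -0.29, against -0.045 over all.

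Other miRNAs of this side come from varied loci. miR-151-5p, from an intron of Ptk2, had medians of 151 CPM in the high and 196 CPM in the low pools (difference -0.40, exact p = 0.00745). The more abundant other arm, miR-151-3p, was on the opposite side, with medians of 1475 and 1386 CPM (difference 0.22, exact p = 0.235). miR-450a-5p, of the X-linked miR-322/miR-503 region, had medians of 21.5 and 28.4 CPM (difference -0.30, exact p = 0.0155). miR-24-2*, a passenger arm of a miR-24 hairpin, had medians of 118 and 199 CPM (difference -0.67, exact p = 0.0285). For miR-24-2* the pool of strain 21, at 274 CPM, exceeded every low pool, and 5 high pools lay below them all. The leukocyte miRNA miR-142-3p is described with its list.

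miR-106b and miR-93 come from neighbouring hairpins in an intron of Mcm7 and share a seed, but lay on opposite sides of 0. They are shown for that reason.
miR-106b: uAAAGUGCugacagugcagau
miR-93: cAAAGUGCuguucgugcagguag
miR-106b was at 798 (strain 14) to 2715 CPM (strain 3) in the high pools, median 1223, and at 1507 (strain 7) to 2752 CPM (strain 25) in the low pools, median 2170 (difference -0.68, exact p = 0.0143). miR-93 was at 3321 to 6748 CPM, median 4566, in the high pools and at 2880 to 4716 CPM, median 3539, in the low pools (difference 0.30, exact p = 0.0351). Neither difference was called (adjusted p = 0.428 for both in the exact permutation test). miR-106b*, the other arm of the miR-106b hairpin, was on the high side (difference 0.23, exact p = 0.153). So was miR-25 of the same cluster (difference 0.12, exact p = 0.418). For miR-106b strains 10, 13, 14 and 20 were the 4 lowest of all pools, from 798 to 966 CPM.

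The 8 miRNAs with the smallest p among those higher in the high pools were miR-421, miR-28*, miR-34c, miR-182, miR-93, miR-191, miR-204 and miR-30e*, again with an adjusted p of 0.428 each in the exact permutation test. miR-421, an X-linked miRNA, was at 22.1 (strain 21) to 64.5 CPM (strain 10) in the high pools, median 36.2, and at 12.2 (strain 18) to 32.4 CPM (strain 11) in the low pools, median 20.8 (difference 0.73, exact p = 0.00872). Strains 10, 13, 14, 20 and 23 lay above every low pool, and the other 4 high pools lay within the low range. miR-28*, from an intron of Lpp, had medians of 791 and 630 CPM (difference 0.44, exact p = 0.0176). The other arm, miR-28, was on the opposite side, with medians of 330 and 357 CPM (difference -0.16, exact p = 0.285). miR-182, of the miR-183 cluster of sensory organs and epithelia, had medians of 13841 and 10935 CPM (difference 0.53, exact p = 0.0218).

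miR-34c, which p53 is known to induce, was high in 2 pools: strain 23 (2397 CPM) and strain 13 (1257 CPM). The other 7 high pools were at 356 to 635 CPM, and the low pools at 355 to 670 CPM (difference of means 0.65, exact p = 0.0206). For miR-191 the medians were 1465 and 1232 CPM (difference 0.23, exact p = 0.039), and for miR-30e*, the other arm of the miR-30e hairpin, 1765 and 1743 CPM (difference 0.47, exact p = 0.0412), with strain 10 at 4330 CPM.

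miR-204 had the largest difference of all 278 miRNAs, and its sequence is given for that.
miR-204: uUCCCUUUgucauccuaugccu
It is encoded in an intron of Trpm3 and best known from the retinal pigment epithelium. miR-204 was at 17.7 CPM in strain 3, 3.48 in strain 10, 35.7 in strain 13, 7.95 in strain 14, 9.69 in strain 20, 81.9 in strain 21, 20.8 in strain 22, 62.1 in strain 23 and 20.2 in strain 28. The low pools were at 6.45 CPM in strain 2, 9.56 in strain 7, 24.7 in strain 9, 14.6 in strain 11, 6.88 in strain 16, 11.99 in strain 18, 2.62 in strain 24, 6.01 in strain 25 and 3.54 in strain 27. Only strains 13, 21 and 23 lay above every low pool. The difference was 1.21 log2 (95% interval by limma 0.19 to 2.24; exact p = 0.0395, adjusted p = 0.428 in the exact permutation test). Unlike the others it grew when strains 10, 13, 14 and 20 were left out, to 1.92 (exact p = 0.003, adjusted p = 0.839 in the exact permutation test of 5 against 9 pools).

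**Figure D5:**
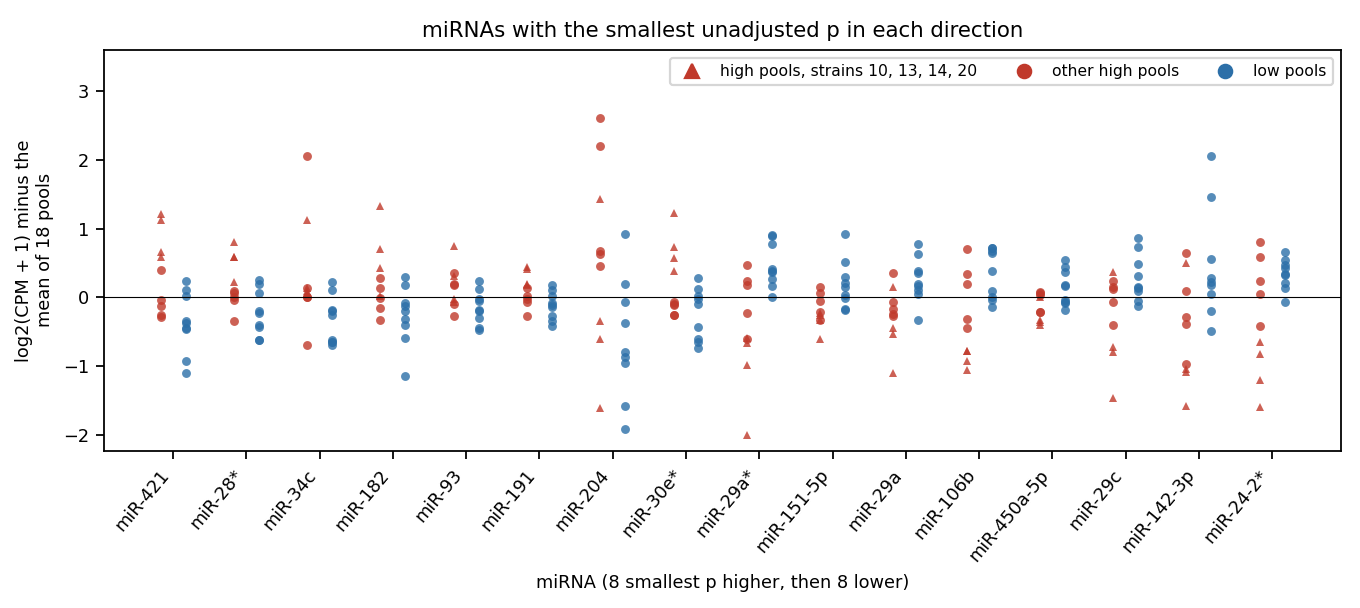
log2(CPM + 1) minus the mean of the 18 pools for the 8 miRNAs with the smallest unadjusted p among the higher and the 8 among the lower ones; red triangles are strains 10, 13, 14 and 20, red circles the other 5 high pools and blue circles the low pools. For miR-106b and miR-421 the triangles take the extreme values, for miR-204 red circles do, and in every column the colours overlap.

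The 4 pools that stand apart carried much of these small differences. Of the 29 miRNAs at an unadjusted p under 0.05, 28 had a mean in strains 10, 13, 14 and 20 that was farther from the low pools than that of the other 5 high pools. Without those 4 strains all 29 kept their direction, 28 had a smaller difference and 17 less than 0.5 times the original one. miR-29a* (difference -0.47, exact p = 0.037) and miR-204 were the 2 that still had an unadjusted p under 0.05. With 5 high pools against 9, 8 of 280 miRNAs (2.86%) had an unadjusted p under 0.05 and 0 were called, and with strain 28 left out as well 9 of 280 (3.21%) and 0 called. The smallest p that 5 against 9 pools allow is 0.0005, which alone cannot reach an adjusted p under 0.05. miR-421 moved from 0.73 to 0.29, miR-106b from -0.68 to -0.25 and miR-24-2* from -0.67 to -0.10. The part of whatever sets these 4 libraries apart was not tested. The other 5 high pools were at 27.2 to 41.6 CPM of miR-216a, 40.7 to 50.1 CPM of miR-217 and 12.8 to 33.1 CPM of miR-216b; for miR-216a and miR-217, their place above the low pools follows from how the pools were chosen.

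Because miR-216a and miR-217 are pancreatic, other miRNAs known from the pancreas were read first. The 4 tested ones were higher by a median of 0.33 log2 (all tested miRNAs -0.009), 1 at an unadjusted p under 0.05 (4.32% of all tested) and none called, and the median was 0.10 without strains 10, 13, 14 and 20 (-0.045 over all). miR-375, of pancreatic islets and also of luminal epithelium, was at 54.5 to 382 CPM in the high pools, median 88.4, and at 45.1 to 155 CPM in the low pools, median 84.4 (difference 0.35, exact p = 0.315). miR-7a, another islet miRNA, had medians of 117 and 94.8 CPM (difference 0.45, exact p = 0.0489), with strain 10 highest at 296 CPM. miR-148a, abundant in acinar cells as in lactating mammary gland, had medians of 48645 and 49379 CPM (difference 0.14, exact p = 0.359), and miR-130b 125 and 96.3 CPM (difference 0.32, exact p = 0.239). In each of the 4 the sets overlapped. Summed CPM of the list, mostly miR-148a, was 37850.5 to 76520.7 in the high and 37846.7 to 65329.5 in the low pools. The part of pancreatic cells in the locus was not tested. The highest pool was strain 22 for miR-375 and miR-130b, strain 10 for miR-7a and strain 20 for miR-148a.

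Among miRNAs of other cell types, the leukocyte list was on the low side in all 5 members (median difference -0.55 log2, 1 at an unadjusted p under 0.05, none called). Over all tested miRNAs 141 of 278 were on that side, with a median of -0.009 and 6.12% lower at an unadjusted p under 0.05. None of the 5 was at 0 in any pool. Summed over the list, the high pools held 1573 (strain 10) to 6727 CPM (strain 28), and the low pools 3153 (strain 16) to 18249 CPM (strain 27). miR-142-3p, made in all blood lineages, was at 1361 to 6416 CPM in the high pools, median 3140, and at 2900 to 17103 CPM in the low pools, median 4764 (difference -0.91, exact p = 0.0252, adjusted p = 0.428 in the exact permutation test). miR-150, of mature lymphocytes, had medians of 20.1 and 43.6 CPM with strain 14, a high pool, at 226 CPM and strain 27, a low pool, at 313 CPM (difference -1.04, exact p = 0.157). miR-142-5p (difference -0.55, exact p = 0.145), miR-155 of activated lymphocytes and macrophages (-0.25, exact p = 0.338) and miR-223 of neutrophils (-0.20, exact p = 0.337) were lower by less. Without strains 10, 13, 14 and 20 the median of the list was -0.65. The part of leukocyte content in the other differences was not tested.

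Muscle miRNAs varied widely inside both sets. Their summed level was 36560 (strain 10) to 303086 CPM (strain 14) in the high pools and 22342 (strain 9) to 161470 CPM (strain 11) in the low ones. miR-1 had medians of 96403 and 78374 CPM (difference 0.46, exact p = 0.387) and miR-206, of skeletal muscle, 2811 and 2200 CPM (difference 0.54, exact p = 0.326; -0.03 without strains 10, 13, 14 and 20). miR-133a (difference -0.11, exact p = 0.876), miR-133b (-0.20, exact p = 0.728) and miR-133a* (0.16, exact p = 0.723) had smaller differences, and all 3 changed sign in the same check. The erythroid list gave medians of 319 and 275 CPM for miR-451 (difference 0.12), 118 and 106 CPM for miR-486 (0.50, exact p = 0.129) and 21.64 and 21.06 CPM for miR-144 (0.001). Scaling by total reads alone turned the signs of miR-451 and miR-144, to -0.01 and -0.12.

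Of the basal epithelial miRNAs, miR-203 had medians of 1920 and 1988 CPM (difference -0.31, exact p = 0.434) and miR-205 of 537 and 522 CPM (difference 0.04, exact p = 0.858; -0.09 with total reads alone). The endothelial arms were split, miR-126-5p at medians of 1267 and 1524 CPM (difference -0.34, exact p = 0.0758) and miR-126-3p at 11885 and 11249 CPM (difference 0.12, exact p = 0.527; -0.01 with total reads alone). miR-122, of hepatocytes, spanned 1.57 (strain 21) to 375 CPM (strain 14) in the high pools and 16.4 to 92.4 CPM in the low pools, with medians of 57.91 and 59.97 CPM (difference -0.03, exact p = 0.972). Strains 10, 13, 14 and 20 had a median of 135.7 CPM of miR-122 and the other 5 high pools one of 12.18 CPM. Without those 4 the difference was -1.38 (exact p = 0.150), and with the first principal component in limma it was -1.04 (adjusted p = 0.761). The mesenchymal list (4 tested, median difference 0.05), the smooth muscle list (3 tested, 0.05), the gut list (3 tested, -0.04) and the neural list (4 tested, 0.14) had no member at an unadjusted p under 0.05. In none of these lists was a member called.

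The Hox cluster miRNAs include miR-196a, which is itself split into levels among the strains. Of the 6 pools with miR-196a at 233 CPM or more, 2 were high pools of the miR-216a locus, strains 13 and 20, which is 33.3% of those 6 and 22.2% of the 9 high pools (difference -0.96, exact p = 0.436). miR-10b had medians of 1090.0 and 1011 CPM (difference 0.43, exact p = 0.0598), miR-10a of 3865 and 4267 CPM (difference 0.22, exact p = 0.578) and miR-196b of 104 and 122 CPM (difference 0.11, exact p = 0.788). Without strains 10, 13, 14 and 20 the difference of miR-196a was -2.29 (exact p = 0.119), that of miR-196b -0.55 and that of miR-10a -0.16. The imprinted Dlk1-Dio3 cluster had 12 of 15 tested members on the high side (median 0.25 log2, 2 higher at an unadjusted p under 0.05), the miR-17-92 cluster 1 of 6 (median -0.33), the miR-183 cluster 2 of 3 (median 0.35), the let-7 family 6 of 9 (median 0.08) and the miR-200 clusters 3 of 5 (median 0.03). None of their members was called. Over all tested miRNAs 137 of 278 were on the high side, the median was -0.009, and 4.32% were higher and 6.12% lower at an unadjusted p under 0.05. Without strains 10, 13, 14 and 20 the medians were 0.14, 0.09, 0.01, -0.22 and -0.20 in the same order, against -0.045 over all tested miRNAs. The lists of Dlk1-Dio3, miR-17-92 and miR-183 leave out some tested arms. In Dlk1-Dio3, miR-376a* (difference -0.93, exact p = 0.0375), miR-376b* (-0.38, exact p = 0.0384) and miR-136* (-0.022) were lower. There miR-127* was higher (0.066). Of the miR-183 cluster, miR-183* was lower (-0.985, exact p = 0.0415). Of miR-17-92, miR-20a* (0.34) and miR-17* (0.055) were higher. None of these arms was called.

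Other miRNAs of chromosome 11 were read as well. RefSeq gave a hairpin by name for 241 of the 278 tested rows, 212 of them on a single chromosome, and 15 of these on chromosome 11. Rows with hairpins on several chromosomes, such as miR-103 and miR-218, and rows with no match by name, such as miR-146a, were left out, although they too have a hairpin on chromosome 11. None of the 15 was called, 7 were higher and 1, miR-142-3p, had an unadjusted p under 0.05. Their median difference was -0.07 log2, against -0.009 over all tested miRNAs. The counts and this median cover the rows placed by name, not every miRNA of the chromosome. Of the 15, those of Mir340 lie nearest to Mir216a, 21313 kb away. miR-340-5p had a difference of 0.20 (exact p = 0.496) and miR-340-3p one of -0.07 (exact p = 0.636).

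The miRNAs whose order over the 18 pools was most like the mean of miR-216a and miR-217, by Spearman rank, were miR-421, miR-28*, miR-191, miR-195 and miR-669c, and the least alike were miR-450a-5p, miR-345-5p, miR-339-5p, miR-1274a and miR-720. As the pools fall into 2 clusters no coefficient is given. miR-195 had medians of 555 CPM in the high and 379 CPM in the low pools (difference 0.41, exact p = 0.0992), and miR-669c 51.5 and 33.9 CPM (difference 0.52, exact p = 0.0614). miR-345-5p had medians of 24.0 and 31.3 CPM (difference -0.61, exact p = 0.0298) and miR-339-5p of 14.4 and 16.3 CPM (difference -0.35, exact p = 0.0305). miR-1274a (difference -0.30, exact p = 0.144) and miR-720 (difference -0.33, exact p = 0.263) had overlapping ranges, as did all the others.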

How the data were processed

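Small RNA of 18 tumour pools, 1 per strain, was read on an Illumina GA IIx instrument (per the series' design text). The authors deposited log2 values for 583 mature miRNA rows; per the submitters' processing notes BWA and mm9 were used, with no version or role, and no source used here names the counter or annotation. Linearised, the deposited log2 values fall on multiples of 1 constant per library, taken as single reads (0.999 to 1.39), within 0.006 log2 for 100.0% of 3890 values under 60; 0 was taken as no reads, although in strain 25 a single read would also round to 0. Rows identical in every library (20 rows in 8 sets) were counted once, leaving 571. Libraries of 4358424 to 14946519 reads were scaled by total and by the trimmed mean of M values, TMM (trims of 30% on log ratios and 5% on abundance; factors 0.671 to 1.67). Tests used log2(CPM + 1), which understates changes of low miRNAs, on rows averaging 10 CPM or more.

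Sets of pools were compared by a two-sided exact permutation test of the difference of means with Benjamini-Hochberg adjustment at 0.05; limma 3.58.1 (R 4.3.3) gave intervals and an alternative. Python 3.11.15, numpy 2.4.6 and pandas 2.3.3 were used, and the test was tried on simulated data. Lists were described by counts and medians. Named rows are the 8 with the smallest p in each direction, tested members of 8 of 18 lists, and the 5 most and least alike in rank. The sets, lists and alternatives were chosen with earlier results of these data known. Sequences and coordinates are RefSeq's for GRCm38.p6, matched by name; the table has no coordinates. Unarmed names were read as the guide arm.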

Additional observations from a re-analysis of the deposited data

Results flagged for a closer look

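In 7 of 112 sets of 9 pools examined (Dixon's test at 0.493), a pool lay far from the others of its set. By chance about 1 in 20 is flagged. The miRNA levels flagged here were tested as log2(CPM + 1), though CPM are given. Component scores and the let-7c share were tested as they stand. Strain 7 was lowest of the low pools for miR-216a (0.978 CPM, from 4 reads, with strain 16 next at 2.48 CPM). Strain 10 was lowest of the high pools for miR-133a (23.3 CPM, next 133 CPM in strain 28) and for miR-133b (2.68 CPM, next 15.3 CPM in strain 28). Strain 14 was highest of the high pools for miR-142-5p (425 CPM, next 153 CPM) and for miR-150 (226 CPM, next 29.6 CPM in strain 3), and had the lowest score on the second principal component (-6.28, next -0.32 in strain 22). Strain 28 had the lowest share of reads in let-7c among the high pools (1.45%, next 14.2% in strain 22).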

How the results depend on the processing

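The count of called miRNAs was 0 in all 31 alternatives, in each direction, with smallest adjusted p between 0.243 and 0.947, leaving out each pool in turn included. Without strains 10, 13, 14 and 20, with strain 28 kept or left out, too few pools remained for 1 miRNA alone to be called. Counts at an unadjusted p under 0.05 went from 8 (without strains 10, 13, 14 and 20) to 46 (without strain 28), against 29; they were 9 with total reads alone, 11 by rank sum or without strain 27, 9 with the first principal component in limma, 12 without strain 10, 14 without strain 13, 18 without strain 20 or 23 and 19 without strain 14. Leaving out any other single pool gave 21 to 43. Total reads alone shifted the median difference to -0.14 log2, and the split of these counts to 2 higher and 7 lower; median-of-ratios gave 9 and 20. No paired analysis was possible because each strain has 1 pool and the labels number no replicates.

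Of 47 named miRNAs, 35 kept their direction in every alternative run. Of the other 12, none called in any, differences turned as follows. Without strains 10, 13, 14 and 20 they were 0.35 for miR-133a, -0.084 for miR-133a*, 0.18 for miR-133b, -0.027 for miR-206, -0.10 for miR-148a, -0.23 for miR-126-3p, -0.55 for miR-196b and -0.16 for miR-10a; without strain 28 as well, 0.62 for miR-133a, 0.40 for miR-133b, -0.12 for miR-148a, -0.19 for miR-126-3p, -0.43 for miR-196b and -0.20 for miR-10a. With the first principal component in limma they were 0.29 for miR-133a, 0.15 for miR-133b, -0.088 for miR-126-3p and -0.24 for miR-196b. Total reads alone gave -0.013 for miR-451, -0.12 for miR-144, -0.087 for miR-205, -0.009 for miR-126-3p and -0.021 for miR-196b. The rank sum, by its median pairwise difference, gave -0.07 for miR-144, -0.052 for miR-205, 0.34 for miR-122 and -0.026 for miR-10a. A pseudocount of 5 CPM gave -0.009 for miR-144 and 0.14 for miR-122, and identical rows all counted -0.005 for miR-144. With each pool left out, the ranges were -0.35 to 0.28 for miR-133a, -0.045 to 0.33 for miR-133a*, -0.42 to 0.13 for miR-133b, -0.13 to 0.12 for miR-144, -0.077 to 0.14 for miR-205, -0.42 to 0.48 for miR-122, -0.11 to 0.25 for miR-196b and -0.002 to 0.34 for miR-10a. Without strains 10, 13, 14 and 20 the difference of the mean scaling factor turned to 0.160 and that of the first component to 1.94 (adjusted p = 0.428 for both, exact permutation test). The cause of these turns was not tested. The low pools' 4 to 103 reads of the locus limit the precision of its low levels.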
